A study of Mus musculus with 4 samples.

Results

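Intergenic sites were the called m6A sites that the authors' annotation labelled Intergenic and left without a gene name. They were taken as all entries annotated Intergenic, with no use of a measured value: 1445 of 45668 sites in mouse 1 (3.16%) and 1534 of 47747 sites in mouse 2 (3.21%), or 1875 of 55333 distinct positions over both animals. The cells were macrophages grown from the bone marrow (BMDM) of 2 wild-type mice, a culture model of tissue macrophages. Both cultures received lipopolysaccharide (LPS), the bacterial product that activates Toll-like receptor 4, for 3 h, and no untreated cells are compared here. Each mouse gave 1 library immunoprecipitated (IP) with an antibody against m6A and 1 input library of the same poly(A)-selected RNA, and NTC, a term in the table names, is left unexplained by the labels. Each site is a single nucleotide, with a score of unstated definition and a fold (reads that begin there in the IP, divided by those in the input), both computed by the authors. The tables give no read numbers, so depth is unknown and no single fold has an error: both mice's folds are printed instead. All 5 macrophage markers examined (Csf1r, Cd68, Adgre1, Lyz2 and Itgam) carried called sites, as did 5 of 5 neutrophil, 2 of 5 lymphocyte and 1 of 4 stromal and endothelial markers, beside 8445 of 21896 RefSeq protein-coding genes (38.6%).

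N6-methyladenosine (m6A) is placed on nuclear RNA by a methyltransferase complex that favours a short motif called DRACH, most often near stop codons and in long exons. A related mark, m6Am, sits on the adenosine that begins many transcripts next to the cap, and antibodies against m6A also bind it, so an antibody-based map does not tell the marks apart. Gene annotations differ in where a gene begins and ends, so a nucleotide can be intergenic in one annotation and lie in a gene in another.

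Sequence could be read for sites near transcript starts, from the 300-base windows that RefSeq gives around gene starts (250 bases before to 50 after, build GRCm38.p6, whose coordinates are those of mm10). The 12 sequences that follow show sites called in both mice at or near a start and were chosen after their values were seen. The first 10 were picked among sites that follow a cytosine, 4 of them with high folds and 6 in inflammatory genes of the lists used here, and the last 2 are among the strongest that do not. The capitals mark the called adenosine and the base before it, in 25-base windows written 5′ to 3′ on the transcribed strand.
Slc49a4, chr16:35769356-35769380, minus strand: cgcaggcgcagCAgacgcgcccggg
Cmtm7, chr9:114781981-114782005, minus strand: cctgcccacgcCAgtccaacttccg
Cyba, chr8:122432921-122432945, minus strand: ggcgggccgatCAgtgaggacttgc
Otud1, chr2:19657719-19657743, plus strand: ccgcctcctacCAtccgcgcgctgc
Tnip1, chr11:54962926-54962950, minus strand: ctgcagaagctCAgaaagcccagca
Klf4, chr4:55532463-55532487, minus strand: gcggccgccggCAgttccccggcca
Zc3h12a, chr4:125127860-125127884, minus strand: ggcttccgcgtCAttgcccttaaag
Otulin, chr15:27630695-27630719, minus strand: ggggcgggccaCAgtgacgcttacg
Nfkbie, chr17:45555688-45555712, plus strand: gggcggggcgaCAgagaagacctaa
Ccl3, chr11:83649348-83649372, minus strand: atggcttcagaCAccagaaggatac
Fam102b, chr3:109027598-109027622, minus strand: tctctgctcgcGAtcagacgggcgg
H2ac10, chr13:23533863-23533887, plus strand: ggctgcatcatTAtacgctgaacag

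None of these sites lies in a DRACH motif. The next 2 sites were chosen because they do. In Slfn2, an interferon-induced Schlafen gene, and in Pcdh7, a protocadherin gene, the strongest site stood 156 and 229 bases before the RefSeq start, and the capitals mark the 5 bases of a DRACH motif around the called A.
Slfn2, chr11:83064944-83064968, plus strand: ttgagcaaatGGACTttgctgcttg
Pcdh7, chr5:57717840-57717864, plus strand: gctcacctttGAACTgcaaagggat

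Intergenic sites had lower folds than the called sites as a whole in both mice. The median fold was 10.5 in mouse 1 and 9.63 in mouse 2, against 15.04 and 14.4 over all called sites. A fold of at least 8 was reached by 990 of 1445 intergenic sites in mouse 1 (68.5%, exact 95% interval 66.05% to 70.9%, counting error only) and by 954 of 1534 in mouse 2 (62.2%, 59.7% to 64.6%), against 81.7% and 79.1% of all called sites. The gap to all sites was larger than the difference between the mice. Annotated 5' UTR sites were as low as intergenic sites, with medians of 10.03 and 10.1 and shares of 64.7% and 61.9%. The same nucleotide was called in the other mouse for 76.4% of intergenic sites in mouse 1 and 72.0% in mouse 2, against 83.4% and 79.8% of all called sites. No test was made, because sites of 1 transcript share their source and 2 values against 2 cannot give a permutation p below 0.333.

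Of the 1875 positions, 1104 were called in both mice (58.9%), against 38082 of the 55333 positions of all called sites (68.8%). This 68.8% is the share to set beside the counts of shared sites in the classes below. Every one of the 1104 was annotated Intergenic in both tables. A fold of at least 8 was reached by 656 of them in both animals, by 149 in mouse 1 alone, by 118 in mouse 2 alone and by 181 in neither. Across these sites the log2 folds of the animals correlated with r = 0.72 (Pearson) and rho = 0.65 (Spearman), as a description over sites that share libraries. The median absolute difference between animals was 0.57 on the log2 scale, against 0.56 for all sites called in both.

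**Figure D1:**
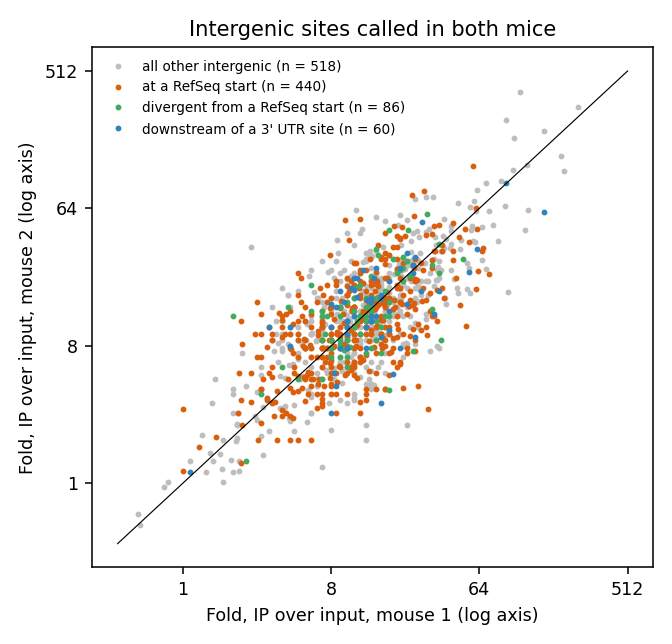
Fold (IP over input) in mouse 1 (x) and mouse 2 (y), both on log axes, for the 1104 intergenic positions called in both mice; each point is a position, the line marks equal folds, and colours give the position class. Points scatter around the line in all 4 classes, and the highest folds, 257 in mouse 1 and 371 in mouse 2, belong to the class of all other intergenic sites.

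The distance to the nearest site with a gene name ranged widely among the intergenic sites. Sites within 10 kb are called near here, which is a chosen limit. On the same strand the median distance was 4442 bases over the union, with quartiles of 111 and 60134 bases, and it was 4036 bases for the sites of mouse 1 and 4337 for those of mouse 2 when named sites of both mice were used. With named sites of the same mouse only it was 6585 bases in mouse 1 and 7296 in mouse 2, and against named sites with a fold of at least 8 it was 9704 bases for the union. Within 100 bases lay a named site for 448 of the 1848 sites that had any on their strand of the chromosome (24.2%), and within 10 kb for 1035 (56.01%, 53.7% to 58.3%). The nearest named site on the opposite strand lay much farther away, at a median of 55138 bases, and within 10 kb for 377 of 1847 sites (20.4%). Beyond 10 kb on their own strand were 813 sites, 449 of them called in both mice.

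The nearest named site of near sites was mostly downstream. Within 10 kb, the nearest named site was downstream of the intergenic site in 787 cases and upstream in 248 (24.0%, 21.4% to 26.7%), and within 100 bases it was downstream in 437 and upstream in 11. Among the sites of mouse 1, 182 of 813 were upstream (22.4%), and among those of mouse 2, 201 of 862 (23.3%). A 5' UTR site was the downstream neighbour of 548 sites, at a median distance of 40 bases, and 456 of these pairs were at most 250 bases apart. A coding sequence site was the downstream neighbour of 134 sites at a median of 1274 bases. In the other direction the commonest neighbour was a 3' UTR site, upstream of 133 sites at a median of 1519 bases. By RefSeq, 591 of the 1035 near sites lay inside a gene on their own strand, 333 within 10 kb before a start and 104 within 10 kb past an end.

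**Figure D2:**
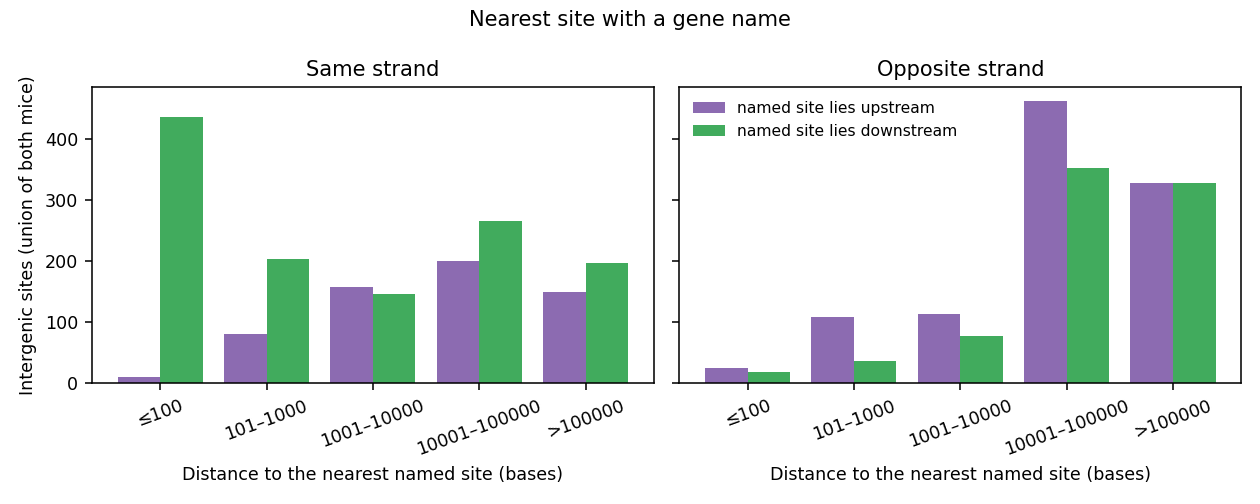
Number of intergenic positions (y, union of both mice) by distance in bases to the nearest site with a gene name (x), on the same strand (left) and on the opposite strand (right); purple bars count named sites that lie upstream and green bars those that lie downstream, along the strand of the intergenic site. On the same strand, 437 positions have a named site at most 100 bases downstream and 11 have one at most 100 bases upstream, against 18 downstream and 25 upstream on the opposite strand.

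RefSeq places many of these sites inside genes. Of the 1875 positions, 874 (46.6%) lay within the extent of a RefSeq gene on their own strand, in 522 genes, and 459 more (24.5%) lay within 10 kb before a start and 155 (8.27%) within 10 kb past an end. A further 126 lay inside a gene on the opposite strand only, 103 inside a gene whose strand was not known, 130 had none of these contexts and 28 were on unplaced or mitochondrial sequence. Strand was known for 57.4% of the RefSeq genes, from the start windows or from named sites, so the 874 is a lower bound. The counts before starts and past ends could rise or fall, because a place inside a gene was assigned first. Of the 874, 679 fell in 436 genes that also had named sites under the same symbol, and 195 fell in 86 genes with none under it. Symbols can differ between annotations: the 3 sites in Get3, counted among the 195, lay 5 to 9 bases from 5' UTR sites named Asna1. A gene with neither a start window nor a named site had no known strand and could not be counted here. By biotype, 721 of the 874 were in protein-coding genes and 104 in 37 long noncoding RNA (lncRNA) genes. The rest were 34 in 17 pseudogenes, 9 in 4 transcribed pseudogenes and 6 in 1 gene of miscellaneous RNA.

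The sites were divided into 4 position classes: at a RefSeq start, past a 3' UTR site, divergent from a RefSeq start, and all other sites, which were the largest class with 906. Start windows were listed for 27025 genes, against 49993 genes in RefSeq, so the count at starts is a lower bound. Sites at a start without a window fell into another class. The Il27 site, 7 bases before its RefSeq start, was counted among the 906. In the RefSeq start windows lay 686 intergenic positions (36.6%) of 468 genes, 440 of them called in both mice, and 409 of the genes had a named site somewhere under the same symbol, 259 of them in the 5' UTR. The median position was 5 bases before the RefSeq start, and 436 positions (63.6%) lay before it, against a median of 13 bases past the start and 19.8% before it for the 4907 annotated 5' UTR sites in the same windows. Between 25 bases before and 10 past the start lay 54.4% of the intergenic and 38.1% of the 5' UTR sites. Exactly on the first transcribed base were 55 intergenic sites (8.02%), among them those of Cmtm7, Otud1, Klf4, Nfkbie and H2ac10 printed above, and 496 5' UTR sites (10.1%). At or past the RefSeq start lay 250 of the 686 intergenic positions.

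**Figure D3:**
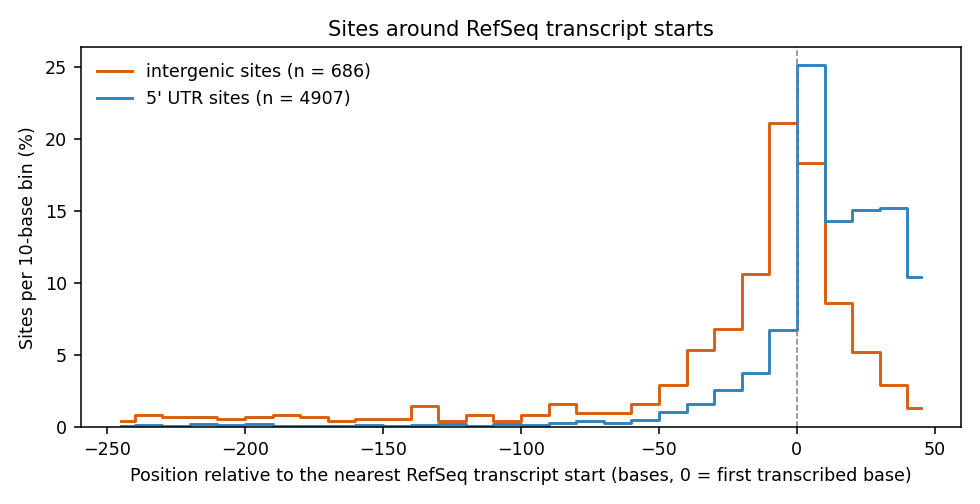
Share of sites per 10-base bin (y, %) by position relative to the nearest RefSeq transcript start (x, bases, 0 being the first transcribed base), for the 686 intergenic and the 4907 annotated 5' UTR sites in the 300-base windows, union of both mice. Both profiles peak next to the start, the intergenic one before it and the 5' UTR one past it.

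The base at the called position was A in all 686 windows, as in all 4907 5' UTR windows, so that positions, strand and build matched the windows. A cytosine came directly before the A (the motif CA) in 442 of the 686 intergenic sites (64.4%, 60.7% to 68.02%) and in 61.6% of the 5' UTR sites. By position, the share among intergenic sites was 55.6% from 250 to 100 bases before the start, 58.2% from 99 to 26 before, 70.7% in the last 25 bases before it, 62.6% from the start to 10 bases past it and 65.5% farther on. In the windows of all RefSeq starts 29.3% of the A letters follow a C, a share that is 55.9% for an A on the first transcribed base itself. Nearly all windows (99.99%) hold CA on the transcribed strand somewhere, and the other strand was not searched because sites have a strand. Sites after C had higher folds: in mouse 1 the median was 11.03 and 72.9% reached 8, against 8.02 and 52.1% for sites after other bases, and in mouse 2 it was 10.6 and 65.5%, against 8.08 and 51.0%. The 5' UTR sites of these windows gave 71.8% and 53.2% in mouse 1 and 69.7% and 49.2% in mouse 2.

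The DRACH motif (A, G or T, then A or G, then the called A, then C, then A, C or T) surrounded 41 of the 686 sites (5.98%, 4.32% to 8.02%) and 2.30% of the 5' UTR sites, against 7.61% of all A letters in the windows. Its place was uneven. From 250 to 100 bases before the start, 20 of 72 intergenic sites had it (27.8%), against 15.5% of 116 5' UTR sites and 7.61% of all A letters there. From 25 bases before to the last base before the start it was 5 of 242 (2.07%), and from the start to 10 bases past it 3 of 131 (2.29%), against 7.76% and 7.55% of all A letters. On the first transcribed base itself, where 55 of these 131 sites lay, the share of A letters was only 2.45%. Of the 41 sites with DRACH, 24 of the 30 called in mouse 1 and 28 of the 33 called in mouse 2 had a fold of at least 8 (80.0% and 84.8%), against 65.0% and 58.7% of the other intergenic sites at starts. Sites with DRACH were called in both mice in 22 of 41 cases (53.7%), against 64.8% of the others. CA and DRACH did not overlap at the called A, because DRACH has A or G before it.

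The sites printed above had these folds. Slc49a4, which encodes a lysosomal membrane transporter, had the highest mean log2 fold of the class, with 58.2 in mouse 1 and 121 in mouse 2, 2 bases past its RefSeq start and 22 bases before a named 5' UTR site. Cmtm7 followed with 61.2 and 64.5. The Slfn2 site with DRACH had 62.2 and 46.7, and a CA site of the same gene 12 bases before the start had 33.07 and 43.4. Cyba, which encodes the p22phox subunit of the phagocyte NADPH oxidase, had 67.2 and 35.1, and Otud1, a deubiquitinase gene, 44.1 and 33.4. Pcdh7 had 36.1 and 50.1. Of the sites without C before the A, Fam102b had 52.6 and 47.2 and the histone gene H2ac10 had 55.2 and 38.5. All of these lay above 8 in both animals, while their order differed between the animals.

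Of 21 genes of the list of NF-kB and feedback control, 4 had an intergenic site within 10 kb before a named site of theirs (19.05%), against 5.73% of all genes with a called site, a description with no test. Tnip1, which encodes a partner of the ubiquitin-editing protein A20, had folds of 25.5 and 56.8 at the site 2 bases past its start and of 29.1 and 25.04 at a second site 6 bases before it. Zc3h12a, which encodes the ribonuclease Regnase-1 that degrades cytokine mRNAs, had 30.1 and 15.9. Otulin, a deubiquitinase gene for linear ubiquitin chains, had 25.1 and 10.3, and a site 10 bases nearer to the start had 17.05 and 4.17, below 8 in mouse 2. Nfkbie, the gene of the NF-kB inhibitor IkB epsilon, had 12.5 and 13.5. In genes of other lists, the transcription factor gene Klf4 had 21.1 and 40.4, and the chemokine gene Ccl3 had 12.03 and 6.78 at the printed site and 8.16 and 7.88 at another 3 bases downstream. Neither of these shared Ccl3 sites reached 8 in mouse 2. Oasl1, an interferon-induced gene, had 2 sites called in mouse 2 alone, at folds of 3.05 and 20.2.

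Outside the windows, further list members had an intergenic site before a named site. Il27, which encodes a cytokine subunit made by activated macrophages, had a site 111 bases before a named 5' UTR site with folds of 13.04 and 28.9. Jund, an AP-1 subunit gene, had one at 39 bases with 42.3 and 34.9, and Stat2, a transducer of interferon signals, one at 2 bases from a named exon site with 11.4 and 62.6. The Maf site, 26 bases before a named 5' UTR site, had only 2.19 and 1.20. The Spi1 site (22.7 and 8.35) lay 7583 bases before a named intronic site, inside the RefSeq extent of that gene.

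By list, 5 of 21 genes of NF-kB and feedback control with a called site had an intergenic site within 10 kb of a named site of theirs on either side, 4 of 18 genes of the cytokine list (which also holds inflammatory enzymes such as Acod1), 3 of 23 interferon-stimulated genes, 2 of 20 inducible transcription factors and 2 of 18 macrophage identity genes. Over all 8933 genes with a called site the share was 608 genes, or 6.81%. None of the marker genes of lymphocytes, neutrophils, stroma or macrophages had one. These counts carry no test, and genes differ in their number of called sites.

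Sites past gene ends were fewer. In 51 genes, 121 intergenic sites outside the start windows had a 3' UTR site as their nearest named site upstream within 10 kb. The median distance was 1235 bases (quartiles 399 and 2549). Called in both mice were 60 of the 121, against 68.8% of all called positions. RefSeq placed 46 of the 121 inside the same gene as that 3' UTR site. A fold of at least 8 was reached by 71 of 82 in mouse 1 (86.6%, 77.3% to 93.1%) and 67 of 99 in mouse 2 (67.7%, 57.5% to 76.7%), against 87.7% and 85.7% of the annotated 3' UTR sites and the 81.7% and 79.1% of all sites. The mice differed more from each other here than in the class at starts, where the shares were 65.8% and 60.2%.

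**Figure D4:**
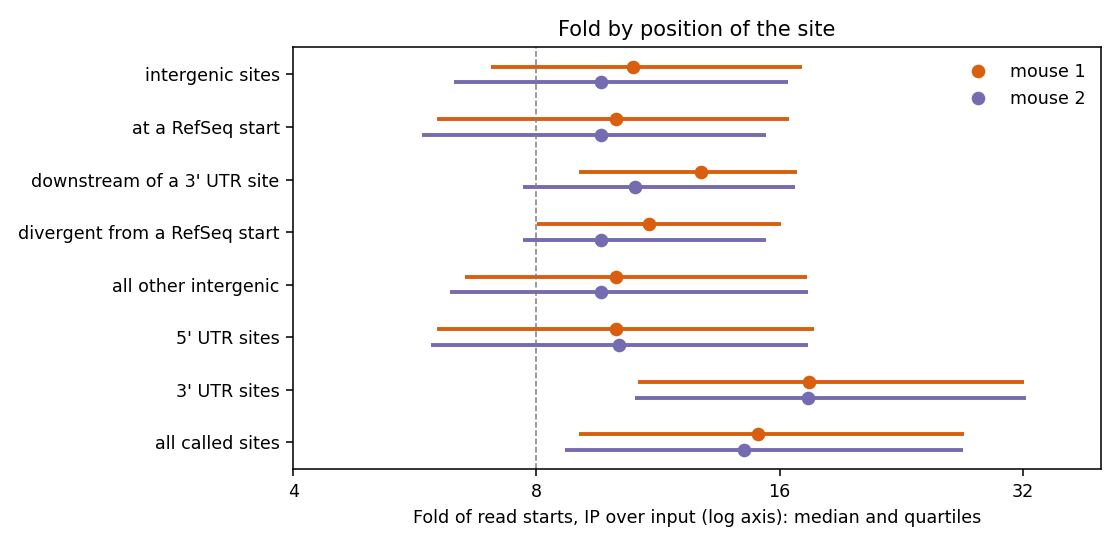
Fold (IP over input; x, log axis) for intergenic sites, their 4 position classes, annotated 5' and 3' UTR sites and all called sites (y); dots are medians and lines run between quartiles, for mouse 1 (orange) and mouse 2 (purple), and the dashed line marks a fold of 8. Intergenic medians sit between 9.63 and 12.8 in every class and mouse, close to the 10.03 and 10.1 of 5' UTR sites and below the 17.3 to 17.4 of 3' UTR sites.

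Among the 10 genes with the most shared intergenic sites downstream of their named sites, several had high folds in both mice. C1qc, which encodes a chain of complement C1q, had 4 sites between 86 and 447 bases past a 3' UTR site, with folds of 61.8, 36.1, 14.04 and 11.03 in mouse 1 and of 34.7, 18.3, 11.6 and 18.6 in mouse 2, from the farthest to the nearest. All 8 values lay above 8. Nrp1, the gene of the coreceptor neuropilin-1, had 6 sites of which 4 were shared, led by one at chr8:128503452 with 157 and 61.0, 152 bases past a 3' UTR site and still inside the RefSeq gene. Snx29 had 4 shared sites with folds from 11.5 to 26.1 in mouse 1 and from 17.3 to 30.8 in mouse 2, plus 1 called in mouse 2 alone at 4.81. Os9 had 5 sites, 4 of them shared, with folds from 7.52 to 21.1 in mouse 1 and from 12.5 to 26.0 in mouse 2. Plekhn1 had 11 sites, of which only 4 were shared, with folds from 4.51 to 14.04 in mouse 1 and from 7.70 to 16.4 in mouse 2. Past a noncoding exon site, Gm8995 had 4 shared sites with folds from 34.3 to 54.2 in mouse 1 and from 18.8 to 49.1 in mouse 2. The 4 shared sites of Atxn7l1, 7552 to 7695 bases past a coding site, had lower folds, from 6.02 to 16.05 and from 9.63 to 22.1.

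Among list members, the cytokine gene Tnf had 1 site 1090 bases past its last named 3' UTR site, with folds of 12.5 and 25.04, and the RefSeq gene had ended before it. Ifit1, an interferon-induced RNA-binding protein gene, had one at 423 bases with 28.1 and 18.3. The pair past Nfkbie, 20 bases apart, had 16.05 and 3.37 at the first site and 4.51 and 10.6 at the second, so that each reached 8 in a different mouse. Acod1, which encodes the enzyme that makes itaconate, had 8 intergenic sites 946 to 2369 bases past its 3' UTR site, all called in mouse 2 alone, with folds of 40.9, 16.6, 9.83, 9.74, 8.99, 4.53, 4.43 and 3.71. The named sites of Acod1 were divided in the same way, with 42 in mouse 2 and 0 in the mouse 1 table used here. On the opposite strand beside Acod1, by contrast, 5 of the 11 sites in the RefSeq lncRNA gene Gm41235 were called in both mice.

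Some intergenic sites lay shortly before the start of a gene on the other strand. The class name divergent describes this position only, and where the transcripts began was not tested. Within 2 kb before a RefSeq start on the opposite strand lay 162 sites that belonged to neither class above, before the starts of 80 genes. Their median distance was 356 bases (quartiles 158 and 580). Called in both mice were 86 of the 162, against 68.8% of all called positions. In mouse 1, 80.5% of the class had a fold of at least 8 and in mouse 2 70.4%, against the 81.7% and 79.1% of all sites. The genes with the most shared sites of this kind were Aftph with 8 (folds of 8.02 to 36.1 in mouse 1 and 9.63 to 46.2 in mouse 2), Rabgef1 with 6, Fyco1 and Tbc1d22a with 5 each and Acod1 and Atad2b with 4 each. RefSeq had a gene on the site's own strand at 68 of the 162. These genes were named after their values were seen.

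Most intergenic sites lay in short clusters with others, while most clusters were single sites. Named sites were left out of this linkage, so a single site can lie beside a named one, as at Plekhb2, 3 bases away. Linked at gaps of up to 1000 bases on 1 strand, the 1875 positions formed 1095 clusters, of which 713 were single sites, 210 pairs, 133 groups of 3 or 4 and 39 groups of 5 or more that held 289 sites. Clusters of more than 1 site had a median span of 27 bases, and their neighbouring sites a median gap of 23. In clusters of more than 1 site lay 62.0% of intergenic sites, against 91.2% of the 53458 sites with a gene name. Each set was linked on its own and the named sites were far more numerous, so these shares are not at like density. The median gap was 5 bases at starts, where the 300-base window limits it, 81 past 3' UTR sites, 76.5 in the divergent class and 27 among all other sites. At least 1 position called in both mice was present in 714 of the clusters.

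The largest cluster lay in 1 RefSeq gene that has no named site in the tables. It held 21 sites at chr17:34997646-34999452 on the minus strand, 19 of them called in both mice, inside D17H6S56E-5 (synonym G7e, chr17:34996678-35000774, protein-coding in RefSeq). The nearest named site on that strand, in Hspa1a, was 25490 bases away. The 19 sites of mouse 1 had folds from 14.3 to 126 with a median of 45.1, and the 21 of mouse 2 had folds from 4.26 to 371 with a median of 35.1. The strongest, at chr17:34998614, had 113 and 371, and others at 34998052, 34998640 and 34997947 had 93.4 and 243, 126 and 124, and 102 and 114. These 4 were among the 10 strongest intergenic sites of the study.

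The next clusters lay in lncRNA genes of RefSeq in whole or in part, or on the strand opposite to a gene. The lncRNA gene Gm46272, beside the start of Aftph, held 15 sites (12 shared) at chr11:20740885-20742657, with medians of 17.5 in mouse 1 and 24.1 in mouse 2. On the minus strand at chr4:3677554-3678766, 10 sites were all called in both mice (medians 22.1 and 21.4), 5 inside Gm42250, a lncRNA gene whose strand was not known, and 5 inside Lyn, a Src-family kinase gene on the plus strand. At chr5:130171315-130172299, 9 sites (7 shared, medians 25.1 and 14.0) lay across the start of Rabgef1 on its opposite strand. At chr9:123851309-123852961, 15 sites (7 shared, medians 15.04 and 12.5) ran over the end of the lncRNA gene Gm51700, with 8 inside it, and 9 of the 15 were within 2 kb before the start of Fyco1 on the opposite strand.

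**Figure D5:**
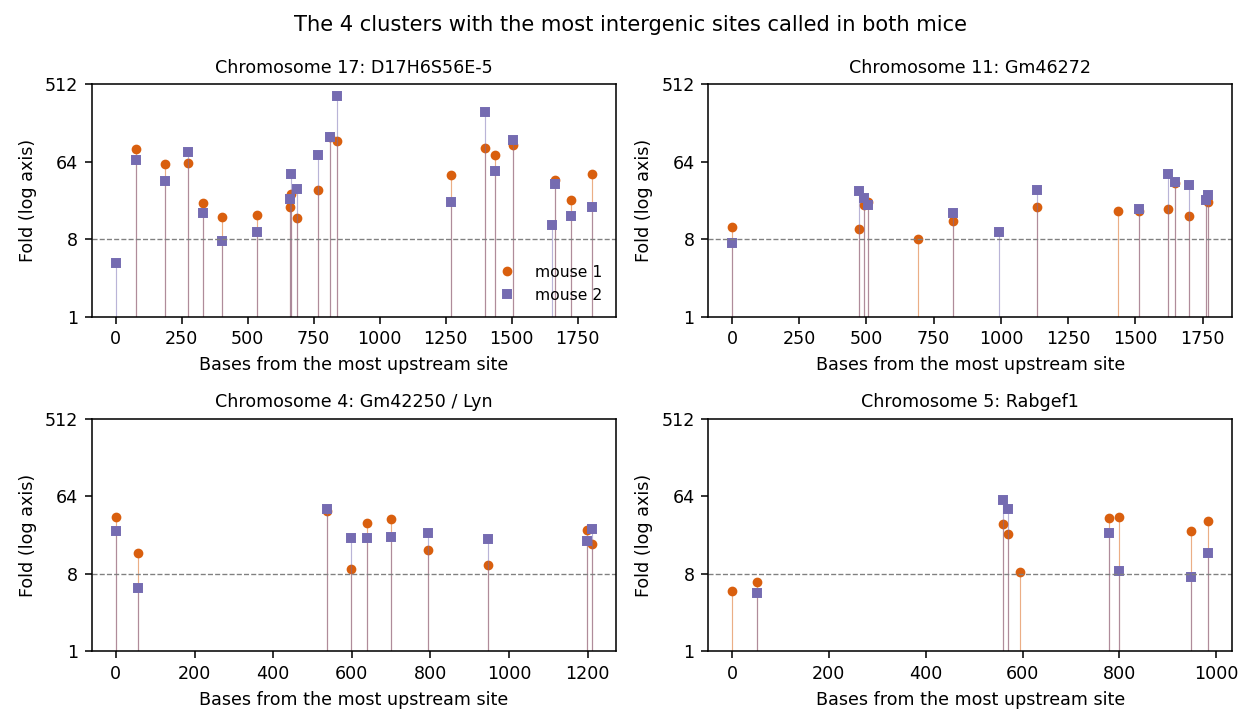
Fold (IP over input; y, log axis) of each site in the 4 clusters with the most intergenic sites called in both mice, by distance in bases from the most upstream site of the cluster (x), in mouse 1 (orange circles) and mouse 2 (purple squares); titles give the chromosome and the RefSeq genes that overlap the cluster on either strand. In the cluster in D17H6S56E-5 the folds reach 126 in mouse 1 and 371 in mouse 2, and the dashed line marks a fold of 8.

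The remaining clusters of the 10 lay inside or past genes. The intergenic position with the highest mean log2 fold was in the RefSeq extent of Cpeb4, a regulator of mRNA polyadenylation in the cytoplasm, at chr11:31871289, with folds of 257 and 298 and 1204 bases before a named coding site. A second one 9 bases on had 209 and 112, and the cluster held 6 sites, 5 of them shared. In Gm12250 (synonym Irgb10), which belongs to the interferon-inducible GTPases, 5 sites at chr11:58189051-58189248 were all shared, with folds from 70.02 to 200.4 in mouse 1 and from 25.7 to 205 in mouse 2, past a named noncoding exon site. Past the end of Nfkb2, an NF-kB subunit gene, 8 sites at chr19:46312795-46315068 (7 shared) had medians of 16.5 and 9.63, starting 7045 bases beyond the nearest named site. Between Coro7 and Pam16 on the minus strand, 7 sites at chr16:4625271-4625866 (6 shared) lay 1221 to 1816 bases past a 3' UTR site of Coro7, with medians of 16.5 and 13.5. At chr13:120024621-120026055, 12 sites (6 shared, medians 13.04 and 10.6) lay past the end of the lncRNA gene Gm36161, 274377 bases from a named site on their strand.

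Some strong sites lay far from any named site on their own strand, and all distances to named sites given here are along that strand. The position chr17:78491551 had folds of 104 and 185, was 116791 bases from a named site and had none of the RefSeq contexts above. Among sites with a fold of at least 8 in both mice, the farthest from a named site on its strand was chr4:96123117, at 2800818 bases, with folds of 31.6 and 47.2 inside Cyp2j12 on the opposite strand. A pair 7 bases apart inside Gm6851 on chromosome 7 had folds of 30.1 and 12.04 and of 9.53 and 25.04, at 1995800 and 1995807 bases from a named site. A site on chromosome 1 at 45857744 (14.6 and 13.5) was 1677003 bases away, and 3 bases from another intergenic site inside Gm5526. A site at chr14:115040969 (17.5 and 9.63), 1725713 bases away, lay 3421 bases before the RefSeq start of Mir17hg, the host gene of the miR-17-92 microRNA cluster.

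The lowest folds of shared sites were found on unplaced sequence. Of 28 sites on unplaced or mitochondrial sequence, 7 were on 1 unplaced contig of chromosome 4, with folds from 0.466 to 1.73 in mouse 1 and from 0.528 to 1.24 in mouse 2. The 3 lowest shared sites were 2 of these (0.547 and 0.528, and 0.535 and 0.628) and chr5:40328085 (0.769 and 0.946). On another unplaced contig of that chromosome, by contrast, 7 sites had folds from 3.76 to 47.1 and from 11.1 to 55.8. Among the assembled chromosomes intergenic sites were most numerous on chromosome 11, with 200 (3.95% of its called sites, against 3.39% over the genome). Their share was 4.68% on chromosome 14, where 29 of 80 were called in both mice, against 58.9% of all intergenic positions. The Acod1 sites called in mouse 2 alone lie on this chromosome. The matching share for all called sites of chromosome 14 is not given here.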

How the data were processed

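Sites were used as deposited, in 1 table per mouse. Per the file headers, each site has the authors' fold, a ratio of IP to input read starts within a mouse, and the authors' score. Tools named in the submitters' processing notes were STAR 2.6.0c, cutadapt 2.7 and UMI-tools 0.5.1, with the builds mm10 and hg38. How sites were called, how the score is defined and which annotation named the genes are points not given in the sources used here. Divided by 1.003 in mouse 1 and 0.963 in mouse 2, 66.4% and 63.8% of intergenic folds were whole numbers within 1e-06.

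Intergenic sites, lists and limits were chosen with earlier results of these data known. Sites were joined by strand and nucleotide, linked into clusters at 1000 bases, and set against the nearest site with a gene name, the RefSeq gene table and 32851 RefSeq start windows of GRCm38.p6. The classes at starts, past 3' UTR sites (10 kb) and divergent (2 kb) were defined after the data were seen and assigned in that order. The text names the 10 highest clusters, sites and downstream genes, the 3 lowest and 5 farthest sites, and list members near an intergenic site; printed start sites, genes of divergent sites and the comparison with Gm41235 were chosen after their values were seen. The linkage and distance steps were tested on simulated data. Intervals are exact (Clopper-Pearson). No genome sequence was used, so no motif was read away from starts. Computations used Python 3.11.15, pandas 2.3.3, NumPy 2.4.6, SciPy 1.17.1 and Matplotlib 3.10.9.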

Additional observations from a re-analysis of the deposited data

How the results depend on the processing

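Over both tables together, 65.3% of intergenic calls had a fold of at least 8. The share was 89.1% at a limit of 4, 27.0% at 16, 76.2% at a score of at least 20 and 68.6% with the limit set before the constant of the table, and 62.2% to 68.5% with either mouse left out. The share called in both mice (58.9%) was 63.5% when sites within 5 bases counted as shared, 63.6% at a score of at least 20 and 65.2% per cluster, and it has no value with a mouse left out. The 1095 clusters became 716 with shared sites only and 716 at a score of at least 20. They were 1283, 1072 and 1055 at linkage of 100, 5000 and 10000 bases, and 906 to 926 with a mouse left out. The share with a named site within 10 kb (56.01%) was 50.4% at 5 kb, 73.2% at 50 kb, 58.8% for shared sites, 50.8% against named sites with a fold of at least 8, 52.7% at a score of at least 20 and 53.6% to 54.9% with a mouse left out. The share of these lying upstream (24.0%) was 21.2% at 5 kb, 27.0% at 50 kb, 21.1% for shared sites, 17.9% per cluster and 23.2% to 23.9% with a mouse left out. The median distance (4442 bases) was 9704 bases against named sites with a fold of at least 8, 3329 per cluster, 7689 at a score of at least 20 and 6585 to 7296 with a mouse left out, when fewer named sites remain. Without the Acod1 sites, an alternative chosen after seeing the data, the share past 3' UTR sites in mouse 2 was 68.1% in place of 67.7%. No paired analysis was possible because the tables give no values per library and no test was made. Depth is unknown, so low folds cannot be weighed by read numbers.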
